A study of Mus musculus with 14 samples.

Results

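The superficial and the deep layers of the superior colliculus were compared in mouse pups whose eyes had received carbenoxolone, across all genes expressed in either layer. The comparison is between 8 of the 14 libraries of the series, 4 of the superficial and 4 of the deep layer. They were chosen by the layer and treatment in their labels and paired by the number in their titles. All pups were of the ICR/CD-1 strain and were taken on postnatal day 6. They had received 0.3 to 0.5 µL of carbenoxolone (cbx) at 50 mM into the vitreous humor on postnatal day 0 or 1. Cbx blocks gap junctions, and per the labels' protocols it was given to ablate retinal waves. The other 6 libraries, 3 of each layer, came from pups injected with saline at the same age. They were used for the second layer comparison below. They also entered the fit of the cbx comparison, through the gene filter, the library factors and the shared estimate of the spread. Each library held microdissected tissue pooled from 3 brains, and every p-value below therefore rests on the spread between such pools. Each layer is bulk tissue in which neurons, glia, vessels and any attached membranes were measured together. Values of the 4 cbx libraries of a layer are given below in the order of pools 1 to 4. A pool number is the number in the title, and the labels do not state whether both layers of a number shared brains.

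The superior colliculus is the roof of the midbrain. Its superficial layers receive the axons of retinal ganglion cells and lie directly under the meninges, the membranes that cover the brain. Its intermediate and deep layers receive touch and hearing, hold the large projection neurons that turn the eyes and head, and carry more myelinated fibres. Layers of this kind are told apart by transcription factors that set neuron types, by the transmitters and channels those types use, and by the glia around them.

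Total counts ranged from 32004952 to 48776827 per library. On the first principal component of the 8 cbx libraries, which held 67.4% of the variance of 1000 variable genes, the 4 superficial libraries lay on one side (27.43 to 40.38) and the 4 deep libraries on the other (-40.96 to -29.17). Pool 4 had 0 counts of the Y-linked gene Ddx3y in both layers, against 16 to 38.6 CPM (counts per 1000000, with TMM library factors) in the other 6 cbx libraries. Genes of meningeal fibroblasts varied in level between the superficial libraries. Without Nnat, which neurons also express, the 22 measured genes of that list summed to 2242, 1535, 3185 and 4291 CPM in the superficial and to 81.1, 74, 96.6 and 104 CPM in the deep libraries. Superficial libraries thus held more meningeal RNA in every pool, least in pool 2 and most in pool 4, and the part of this in the other layer differences was not tested. By counts of all genes, pool 1 stood apart in the superficial layer. Its chi-square per gene was 42.3 against pool 3 and 45.7 against pool 4, while pools 2 and 4 gave 19.9. Superficial pool 1 had the lowest sum of sodium, calcium and HCN channel genes (1747, 1997, 2268 and 2210 CPM). It had the highest sum of pan-neuronal genes (8925, 8530, 8321 and 8116 CPM). The part of this in the layer differences was not tested either. In bulk tissue, fewer cells of a type and less RNA per cell cannot be told apart.

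The start regions of 4 genes are shown, each from a group of cells described below. Gfap, of fibrous astrocytes, Ptgds, of the meninges, and Rorb, of superficial neurons, were higher in the superficial layer, and Pou4f1, of deep neurons, was lower. Each run holds 250 bases before to 50 after a RefSeq start in GRCm38.p6, read 5′ to 3′ on the gene's strand. Capitals mark matches on either strand to TATAAA (the core of the TATA box), to GGGCGG (the core of the GC box) or to TAATTA (a core bound by many homeodomain proteins), and matches may overlap. All 4 genes lie on the minus strand, Gfap at chr11:102897151-102897450, Ptgds at chr2:25469700-25469999, Rorb at chr19:19111147-19111446 (the first listed of its 2 starts) and Pou4f1 at chr14:104467950-104468249.
Gfap: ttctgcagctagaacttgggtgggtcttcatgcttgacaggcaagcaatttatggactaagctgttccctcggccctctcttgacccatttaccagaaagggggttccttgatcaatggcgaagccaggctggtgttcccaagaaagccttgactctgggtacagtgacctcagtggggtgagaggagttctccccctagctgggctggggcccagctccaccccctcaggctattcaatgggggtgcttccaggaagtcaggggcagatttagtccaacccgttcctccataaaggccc
Ptgds: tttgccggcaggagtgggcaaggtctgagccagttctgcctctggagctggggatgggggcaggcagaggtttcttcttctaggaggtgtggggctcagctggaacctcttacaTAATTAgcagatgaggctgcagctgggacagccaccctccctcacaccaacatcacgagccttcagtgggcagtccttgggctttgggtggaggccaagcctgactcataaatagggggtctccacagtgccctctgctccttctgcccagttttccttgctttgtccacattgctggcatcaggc
Rorb: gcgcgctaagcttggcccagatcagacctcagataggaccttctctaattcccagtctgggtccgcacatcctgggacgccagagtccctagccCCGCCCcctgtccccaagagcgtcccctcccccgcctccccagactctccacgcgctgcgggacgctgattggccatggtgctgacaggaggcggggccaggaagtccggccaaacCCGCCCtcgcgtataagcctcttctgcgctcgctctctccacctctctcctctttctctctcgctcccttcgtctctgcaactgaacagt
Pou4f1: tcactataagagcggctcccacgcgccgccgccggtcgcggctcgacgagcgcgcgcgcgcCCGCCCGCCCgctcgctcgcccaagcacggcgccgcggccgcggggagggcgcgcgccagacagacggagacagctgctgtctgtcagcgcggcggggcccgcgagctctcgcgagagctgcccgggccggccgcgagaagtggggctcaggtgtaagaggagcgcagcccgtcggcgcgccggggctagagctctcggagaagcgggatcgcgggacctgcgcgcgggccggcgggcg
The Gfap window holds none of the 3 motifs, that of Ptgds holds 1 TAATTA, and those of Rorb and Pou4f1 hold 2 matches each to GGGCGG, on the other strand. Of 15486 protein-coding gene symbols tested, 12033 had a window in the table. Among these, 61.5% held GGGCGG, 7.51% held TATAAA and 2.65% held TAATTA. Of the 225 windows of genes at least 4-fold higher in the superficial layer, 38.2% held GGGCGG, 14.2% TATAAA and 4.44% TAATTA. Of the 56 windows of genes at least 4-fold lower, 32.1% held GGGCGG, 12.5% TATAAA and 1.79% TAATTA. The median GC content was 53.7% in the first set and 56.2% in the second, against 60.3% for all windows. These shares describe windows of 300 bases and were not tested.

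The layers differed in a large share of the expressed genes. Of 20330 genes tested, 4205 were higher in the superficial than in the deep layer after cbx and 3397 were lower (edgeR's quasi-likelihood test with pool as a block, Benjamini-Hochberg threshold 0.05), that is 20.7% and 16.7% of the genes tested. The median log2 difference over all genes, superficial minus deep, was 0.0138. Most called differences were small, with a median size of 0.44 on the log2 scale. The strong end was larger on the superficial side, where 905 called genes were at least 2-fold, 356 at least 4-fold and 184 at least 8-fold higher, against 650, 157 and 33 that were lower by the same folds. These genes made up little of the RNA. Genes at least 2-fold higher took 1.88% to 2.61% of the counts of superficial libraries and 0.551% to 0.612% of those of deep libraries.

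The call and the spread between pools went together for most genes. The 4 superficial libraries lay above all 4 deep ones for 3390 genes (16.7% of those tested) and below all of them for 2635 (13.0%). Of the called genes, 3883 of the 4205 higher ones had the same sign in 4 of 4 pools, as had 3129 of the 3397 lower ones. By gene type, 44.8% of 15491 protein-coding genes were called, 3978 higher and 2964 lower. Of 789 long intergenic RNAs 56 were higher and 95 lower, of 986 antisense genes 32 were higher and 94 lower, and of 902 processed pseudogenes 54 were higher and 18 lower. Whether the counting used strand is not given in the sources used here. If it did not, reads of an antisense gene and its partner are mixed.

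**Figure D1:**
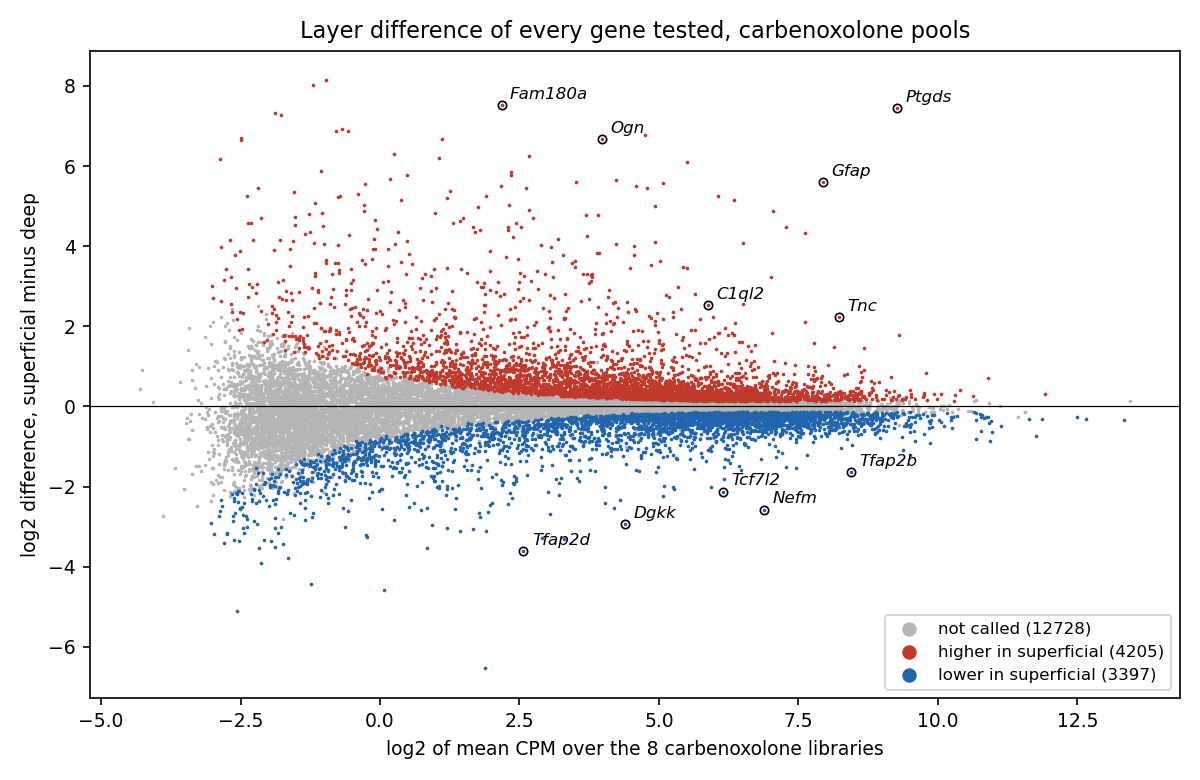
Log2 difference between layers (superficial minus deep, vertical axis) against the log2 of the mean CPM over the 8 cbx libraries (horizontal axis) for each of the 20330 genes tested, red where higher, blue where lower and grey where not called. The red points reach further from 0 than the blue ones, with Fam180a (7.52) and Ptgds (7.44) among the highest.

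How the libraries are scaled sets how many genes lean each way. Scaled to the summed counts of 15 genes that all neurons use, such as the synaptic genes Snap25 and Syn1, the median difference over all genes shifted by 0.225 on the log2 scale, and 8700 genes were higher and 1449 lower, so that 85.7% of the calls were higher against 55.3% under TMM. With median-of-ratios size factors the split was 3701 and 3726. Under TMM 11 of those 15 neuronal genes were lower and 2 higher in the superficial layer, with a median of -0.26. With that scaling 4 were lower and 4 higher, and without pool 1, 2 or 3 only 1 was higher. Differences smaller than the shift depend on the scaling. Of 55 gene lists 9 had rounded medians that changed sign under 1 of these scalings, and these are named with their values below. Medians that rounded to 0.00 could not be counted. These were microglia and macrophages (0.00, and 0.22 with the pan-neuronal scaling) and connexins and pannexins (0.00, and -0.03 with median-of-ratios factors). The median of GABA and glycine synthesis and transport went from -0.22 to 0.00 with the pan-neuronal scaling. Counts of list members below are to be read against the 20.7% of all genes tested that were higher and the 16.7% that were lower. Both shares were larger among protein-coding genes alone, with 3978 of 15491 higher and 2964 lower (44.8% called).

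Genes known from neurons of the superficial, retina-recipient layers split into both directions. Of 12 measured, 7 were higher in the superficial layer (20.7% of all genes were) and 4 were lower (16.7% of all genes were), with a median log2 difference of 0.65. Tac1 (ENSMUSG00000061762), the precursor of the neuropeptide substance P, stood at 106, 88.2, 76.1 and 78.7 CPM in the superficial and at 22.6, 19.8, 15.2 and 19.1 CPM in the deep libraries. No library of one layer reached the other, and the difference was 4.56-fold (2.19 on the log2 scale, SE 0.061, edgeR adjusted p = 5.49e-16). Rorb (ENSMUSG00000036192), an orphan nuclear receptor of neurons that receive sensory input, stood at 137, 134, 105 and 127 CPM against 35.6, 32.3, 37.5 and 39.8 CPM, a difference of 1.79 (SE 0.077, edgeR adjusted p = 9.25e-12). Barhl1 (ENSMUSG00000026805), a homeobox factor, stood at 143, 136, 120 and 139 CPM against 42.8, 43, 41.3 and 50.3 CPM, or 1.60 (SE 0.059, edgeR adjusted p = 3.75e-14). All 3 were separated by layer in every pool. Smaller rises were measured for Grp (0.84), a peptide precursor, for the calcium buffer gene Calb1 (0.79), for the paired box factor Pax7 (0.78) and for Cbln4 (0.39), a secreted synapse organizer.

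The 4 members that were lower were Etv1, Ntsr1, Npnt and Calb2. Etv1 (ENSMUSG00000004151), an ETS transcription factor, stood at 22.8, 25.8, 24.8 and 23.8 CPM in the superficial and 104, 96, 99.5 and 93.7 CPM in the deep libraries, a difference of -2.02 (SE 0.061, edgeR adjusted p = 2.46e-15). The neurotensin receptor gene Ntsr1 differed by -1.34 (SE 0.13, edgeR adjusted p = 2.55e-07), from a mean of 6.76 to one of 17 CPM. Ntsr1 marks wide-field neurons of the superficial layers in adults, and the list did not move as 1 block on postnatal day 6. Calb2, which codes for the calcium buffer calretinin, differed by -0.32, its layers overlapped, and its call ended with the pan-neuronal scaling. Zic1 was the member not called (0.52).

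Genes of deep collicular neurons went in the other direction. Of 10 measured, 8 were lower in the superficial layer and 1 was higher, with a median of -1.98. All 3 Pou4f genes, POU factors of projection neurons, were lower. Pou4f1 (ENSMUSG00000048349) stood at 41.5, 44.5, 45.2 and 38.4 CPM against 109, 109, 111 and 119 CPM, or -1.40 (SE 0.067, edgeR adjusted p = 3.27e-12). Pou4f2 (ENSMUSG00000031688) stood at 13.4, 17.4, 17.7 and 12.1 against 67.1, 61.7, 59.3 and 60.6 CPM, or -2.05 (SE 0.11, edgeR adjusted p = 1.83e-08). Pou4f3 stood at a mean of 0.507 against 4.11 CPM (-3.04). The 3 Onecut factors followed the same direction, with differences of -2.59 for Onecut1, -1.90 for Onecut2 and -3.52 for Onecut3. Ebf1 was slightly lower (-0.25), Ebf2 was the exception at 0.55, and Ebf3 was not called (-0.14).

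Among 14 factors listed for inhibitory (GABA) midbrain neurons, 8 were higher in the superficial layer and 5 were lower, with a median of 0.69. Not all of them are particular to these neurons. Dmbx1, a paired-type homeobox factor, stood at 110, 105, 96.3 and 108 CPM against 28.6, 29.5, 26.7 and 33.6 CPM, a difference of 1.82 (SE 0.071, edgeR adjusted p = 1.96e-13). Sox14, an HMG-box factor of GABA neurons, stood at 110, 86.3, 78.9 and 87.7 CPM against 29.3, 27.9, 25.2 and 29.1 CPM, or 1.70 (SE 0.067, edgeR adjusted p = 1.41e-13). Tal1 (0.99) and Tal2 (1.51), Gata3 (0.62), Lhx1 (1.14), Lhx5 (1.02) and Zfpm2 (0.76) were higher too. The 3 AP-2 factors of this list went the other way. Tfap2b (ENSMUSG00000025927) stood at 164, 180, 168 and 164 CPM in the superficial and 547, 538, 530 and 481 CPM in the deep libraries (-1.63, SE 0.054, edgeR adjusted p = 1.05e-14). Tfap2d stood at 0.427, 0.711, 0.894 and 1.61 against 9.91, 11.1, 12.2 and 10.7 CPM (-3.62, SE 0.21, edgeR adjusted p = 3.47e-10), and Tfap2a differed by -1.28. Zfpm1 (-0.31) and Nkx2-2 (-0.87), which oligodendrocyte precursors also express, made up the other lower members, and Gata2 was not called (0.14).

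**Figure D2:**
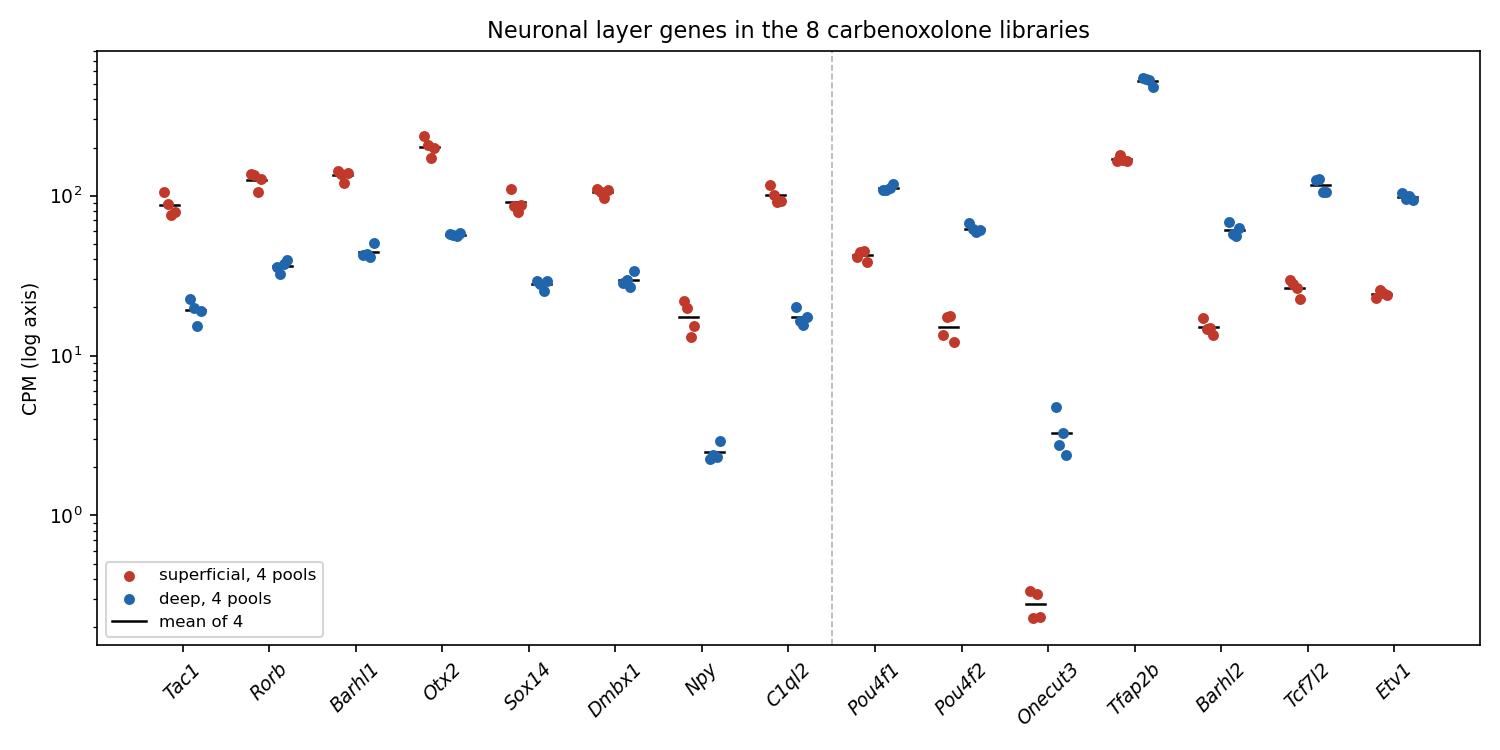
CPM on a log axis of 15 neuronal layer genes in the 4 superficial (red) and 4 deep (blue) cbx libraries, with the mean as a bar. The layers do not overlap for any of the 15.

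Transcription factors beyond these lists were layered as well. Otx2 (ENSMUSG00000021848), a homeobox factor of the midbrain roof that is also strong in choroid plexus, stood at 235, 207, 172 and 198 CPM against 57.6, 56.5, 55.6 and 58.7 CPM, a difference of 1.82 (SE 0.062, edgeR adjusted p = 1.48e-14). The related factors Barhl1 and Barhl2 were layered in opposite directions, with Barhl2 at 17.3, 14.7, 14.9 and 13.5 CPM in the superficial and 68.6, 57.5, 55.6 and 63.1 CPM in the deep libraries (-2.02, SE 0.08, edgeR adjusted p = 1.8e-13). Tcf7l2, an effector of Wnt signalling that marks neurons of the thalamus and midbrain, was lower at 29.5, 28.2, 26.3 and 22.5 against 126, 128, 105 and 105 CPM (-2.12, SE 0.057, edgeR adjusted p = 3.32e-16). Foxb1, a forkhead factor, differed by -2.33, and the orphan nuclear receptor gene Esrrb, at a mean of 1.79 against 17.8 CPM, by -3.31. Zic2 (2.34) and Zic5 (2.79), zinc finger factors of the dorsal neural tube that meningeal cells also express, were higher, as were the LIM-only gene Lmo1 (1.52) and Nr2f2 (1.40). Counted by family, 6 of 10 LIM factors were higher and 2 lower, 15 of 31 other homeobox and paired box factors were higher and 7 lower, 6 of 18 POU and nuclear receptor factors were higher (14 with the pan-neuronal scaling) and 2 lower, and of 32 zinc finger, SOX, forkhead and bHLH factors 12 were higher and 10 lower.

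Markers of neighbouring regions were used to check the dissections. Of 11 measured genes of monoaminergic, cholinergic and oculomotor neurons, which lie below the colliculus, 4 were lower in the superficial layer and none was higher (2 with the pan-neuronal scaling and 1 without pool 1), and the whole list summed to 19.9 to 22.4 CPM in the superficial and 26.9 to 29.3 CPM in the deep libraries. Slc18a3 and Slc5a7, the transporters that define cholinergic neurons, stood at means of 1.47 and 2.08 CPM in the deep layer and 0.347 and 0.624 CPM in the superficial one. Genes of cortical and hippocampal neurons (1 higher and 4 lower of 10, and 2 and 2 with the pan-neuronal scaling) summed to 196 to 226 CPM against 272 to 287 CPM, and thalamic genes (1 higher and 3 lower of 7, with 2 higher without pool 1 or pool 4 and 3 with that scaling) to 388 to 407 against 463 to 491 CPM. Cerebellar genes (3 higher and 2 lower of 7, with 1 lower without pool 3 or pool 4 and with that scaling) summed to 147 to 157 against 148 to 161 CPM. Gbx2 of the thalamus, Emx1 and Fezf2 of the cortex, and Atoh1 and Gabra6 of the cerebellum were too low to be tested. Other members differed strongly and without overlap. Neurod6, of the cortical and hippocampal list, stood at a mean of 1.83 CPM in the superficial and 8.17 CPM in the deep layer (-2.16). Pcp2, of the cerebellar list, stood at 4.24 against 0.382 CPM (3.46). Whether such RNA came from neighbouring tissue was not tested. Several members of these lists, such as Tcf7l2, Zic2 and Barhl2, are also used by the colliculus.

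Genes shared by all neurons were somewhat lower in the superficial layer under TMM, while genes of young neurons were called in both directions, more of them higher. Of 13 genes of immature neurons 8 were higher and 4 lower (1 lower with the pan-neuronal scaling), with a median of 0.59 and a range from -1.09 to 0.98. The summed level of the list overlapped between layers, at 6366 to 6990 CPM in the superficial and 6040 to 7025 CPM in the deep libraries. Dcx, a microtubule protein of migrating neurons, stood at 492, 492, 562 and 590 CPM against 273, 260, 303 and 305 CPM, a difference of 0.90 (SE 0.05, edgeR adjusted p = 2.44e-11). Sox11 (0.90) and Sox4 (0.78), SOX factors of neurons that have just left the cell cycle, and Mex3a (0.88) were higher in all 4 pools. Of the 15 pan-neuronal genes, Gap43, of growing axons, differed by -0.63 and Eno2, a glycolytic enzyme, by -0.47, whereas Syt1, the calcium sensor of synaptic vesicles, was higher at 0.58.

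RNA of the transmitter genes Slc17a6 and Gad1 differed between layers in opposite directions. Slc17a6 (ENSMUSG00000030500), the vesicular glutamate transporter of subcortical excitatory neurons, stood at 193, 204, 209 and 190 CPM in the superficial and 445, 394, 402 and 406 CPM in the deep libraries, a difference of -1.05 (SE 0.062, edgeR adjusted p = 6.27e-11). Gad1 (ENSMUSG00000070880), which makes GABA, went the other way at 524, 517, 481 and 510 against 309, 268, 264 and 285 CPM, or 0.85 (SE 0.052, edgeR adjusted p = 1.04e-10). The layers did not overlap for either gene. Gad2, the other GABA-making enzyme, was slightly lower (-0.27, a call that ended with the pan-neuronal scaling), and Slc32a1, the vesicular GABA transporter, slightly higher (0.25). Of 10 genes of GABA and glycine synthesis and transport 2 were thus higher and 6 lower, with a median of -0.22. With the pan-neuronal scaling 2 were lower, and without pool 2 only 1 was higher. Among the 6 was Slc6a11, a GABA transporter of astrocytes, at a mean of 643 against 1212 CPM (-0.92).

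Receptors for fast transmission had more lower than higher members. Of 18 ionotropic glutamate receptor genes 15 were lower and 1, Gria1 (0.41), was higher, with a median of -0.32. With the pan-neuronal scaling 7 were lower and 2 higher. The NMDA receptor subunits Grin1 (-0.50), Grin2a (-0.57) and Grin2d (-0.65) were among the lower ones, as was the AMPA receptor subunit Gria2 (-0.53). Of 22 GABA-A and glycine receptor genes 11 were lower and 3 higher, with a median of -0.23, and with that scaling 7 were lower and 5 higher. The rho subunits, known for slow GABA responses in the retina and colliculus, were among the higher genes. Gabrr1 (ENSMUSG00000028280) stood at 15.8, 11.2, 13 and 10.6 CPM in the superficial and 2.12, 1.34, 1.95 and 1.21 CPM in the deep libraries (2.94, SE 0.13, edgeR adjusted p = 1.15e-12), and Gabrr2 differed by 1.92. Metabotropic glutamate receptor genes were lower in 6 of 8 and higher in 1, a count of 0 without pool 2, 3 or 4. Among the lower ones were Grm2 (-1.20) and Grm5 (-0.67).

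Cholinergic receptors divided by subunit. Of 16 genes of acetylcholine receptors and turnover 5 were higher and 7 lower, with 4 lower without pool 1 and 4 with the pan-neuronal scaling. The 3 nicotinic subunit genes Chrna3, Chrna5 and Chrnb4, which lie side by side in the genome, were all higher, by 1.17, 1.06 and 1.33, and Chrna6 by 0.62. Chrna3 stood at 49.2, 46.3, 43 and 43.4 CPM against 23.4, 17.4, 20.1 and 20.1 CPM. Chrnb3 (-1.12), Chrna4 (-0.54) and the acetylcholine-degrading enzyme gene Ache (-0.45) were lower. Serotonin, dopamine and adrenaline receptors were lower in 12 of 24 and higher in 4 (2 without pool 2 or pool 3). Htr2c, a serotonin receptor, stood at 5.61, 4.67, 4.99 and 6.06 CPM in the superficial and 35.9, 33.8, 29.6 and 26 CPM in the deep libraries (-2.55, SE 0.12, edgeR adjusted p = 2.75e-11), and 7 further serotonin receptor genes were lower, with Htr1b at -1.62 and Htr5b at -1.84. Drd1, a dopamine receptor, was higher (1.12).

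Neuropeptide genes were called in both directions, as were all genes tested (20.7% higher and 16.7% lower). Of 24 precursor genes 4 were higher and 10 lower, with a median of -0.50. Npy (ENSMUSG00000029819), the precursor of neuropeptide Y, stood at 21.9, 19.9, 13.1 and 15.2 CPM in the superficial and 2.26, 2.4, 2.33 and 2.92 CPM in the deep libraries, a difference of 2.81 (SE 0.14, edgeR adjusted p = 4.1e-12). Nts, which codes for neurotensin, was the reverse at 0.549, 0.37, 0.77 and 0.971 against 7.63, 5.81, 4.78 and 4.42 CPM (-3.06, SE 0.26, edgeR adjusted p = 2.65e-08). Pdyn, the dynorphin precursor (-1.96), Adcyap1 (-1.91), Cartpt (-1.88), Gal (-1.53) and the secreted neuronal protein gene Vgf (-1.10) were lower too. Peptide receptors were lower in 16 of 31 and higher in 2 (5 with the pan-neuronal scaling). The higher ones were Npy1r, a receptor for neuropeptide Y (1.59), and Vipr2 (0.40). Another receptor of the same peptide, Npy2r, was lower (-2.64), as were Cckar (-3.16), Hcrtr1 (-1.59) and Tacr1, the substance P receptor (-1.03).

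More ion channel genes were lower than higher in the superficial layer. Of 37 voltage-gated potassium channel genes 26 were lower in the superficial layer and none was higher (1 without pool 1), with a median of -0.42, and of 21 sodium, calcium and HCN channel genes 18 were lower and none was higher, with a median of -0.52. With the pan-neuronal scaling the counts were 16 lower and 4 higher, and 11 lower and 2 higher, so a part of this lean depends on the scaling. Kcnc4, a fast-repolarizing potassium channel, stood at 48.5, 48.1, 45.1 and 39.4 CPM against 141, 124, 128 and 117 CPM, a difference of -1.50 (SE 0.053, edgeR adjusted p = 2.81e-14). The axonal sodium channels Scn1a (-0.81), Scn8a (-0.76) and Scn2a (-0.68) were lower in each of the 4 pools. Scn4b, a beta subunit of fast-firing neurons, differed by -2.04.

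Genes of large axons followed. All 3 neurofilament subunits were lower, and of the list of 10 genes 8 were lower and 1 higher (2 with the pan-neuronal scaling). Nefm (ENSMUSG00000022054) stood at 24.4, 35.3, 38.2 and 37.8 CPM in the superficial and 232, 205, 182 and 187 CPM in the deep libraries, a difference of -2.58 (SE 0.18, edgeR adjusted p = 6.01e-05). Nefl differed by -1.52 and Nefh by -1.97. The higher gene was Spp1 (1.45), which codes for osteopontin and is also made by macrophages and meningeal cells.

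Connexins form the channels that cbx blocks. Cbx was injected into the eye, and these counts do not show whether it reached the colliculus. Of 14 connexin and pannexin genes 6 were higher and 4 lower. Gjd2, the main connexin of neurons, stood at 51.4, 47.5, 53.3 and 46.4 CPM in the superficial and 110, 101, 99.4 and 104 CPM in the deep libraries, a difference of -1.06 (SE 0.063, edgeR adjusted p = 6.27e-11), and Panx2, a neuronal pannexin, differed by -0.67. Gjb2 and Gjb6, connexins of astrocytes and meningeal cells, were higher by 3.83 and 3.07. Gjb2 stood at 24.6, 19.4, 32.5 and 37.4 CPM in the superficial libraries, lowest in pool 2 and highest in pool 4, as the meningeal genes did, and stood at 2.01, 1.61, 2.39 and 1.83 CPM in the deep ones. Gja1, of astrocytes and meninges (0.55), and Gja5, of arteries (1.51), were higher as well.

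Axon guidance genes place retinal and other axons in the map and layers of the colliculus. Members were called in both directions within most families, as were all genes tested (20.7% higher and 16.7% lower). Of 9 EphA receptor genes 5 were lower and 1 higher (3 lower without pool 2, and 2 lower and 2 higher with the pan-neuronal scaling), with Epha5 at -0.48 and Epha2 at 0.70. Of 5 ephrin-A genes, the ligands that order retinal axons from front to back, Efna1 (0.96) and Efna4 (1.11) were higher and Efna3 (-0.33) and Efna5 (-0.27) lower, both calls ending with the pan-neuronal scaling. Efna5 stood at 27.1, 36.1, 26.2 and 35.7 CPM in the superficial and 33.2, 35.4, 34.1 and 47.9 CPM in the deep libraries, so its layers overlapped. Its call also ended without the pairing and without pool 1, 3 or 4, which left 1 ephrin-A gene lower. Efna2 was not called (0.06). Of the ephrin-B ligands Efnb1 (0.84) and Efnb2 (0.72) were higher, and Efnb3, at means of 220 and 206 CPM, was not called (0.10). Of 5 EphB receptors Ephb4, of vessels, was higher (1.27), and Ephb1 (-0.30) and Ephb6 (-0.32) were lower. With the pan-neuronal scaling none was lower and 2 were higher, and the list's median turned from -0.10 to 0.13.

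Of 11 plexin and neuropilin genes 2 were higher (4 without pool 1) and 6 lower, with a median of -0.27. Nrp2 (ENSMUSG00000025969), a co-receptor for class 3 semaphorins, stood at 300, 308, 351 and 361 CPM against 108, 101, 116 and 116 CPM, a difference of 1.58 (SE 0.057, edgeR adjusted p = 3.52e-14), and Plxnd1 was higher by 1.11. The plexins Plxna4 (-1.35), Plxna2 (-1.17) and Plxnc1 (-0.59) were lower. Robo3, a receptor that lets axons cross the midline, stood at 7.51, 11.6, 9.61 and 12.7 CPM in the superficial and 0.671, 1.04, 0.612 and 0.884 CPM in the deep libraries (3.68, SE 0.18, edgeR adjusted p = 4.1e-12). Robo2 differed by 0.61, while the slit genes Slit1 (-0.94), Slit2 (-0.63) and Slit3 (-1.03) and the attractant gene Ntn1 (-1.05) were lower. The list of slits, robos and netrins as a whole had 4 higher (9 with the pan-neuronal scaling) and 8 lower of 20, with a median of -0.09 that turned to 0.13 with that scaling. Of 20 semaphorin genes 5 were higher (3 without pool 3, 8 with the pan-neuronal scaling) and 10 lower (4 with that scaling, under which the median turned from -0.16 to 0.06). Sema6a, a transmembrane semaphorin, was higher at 287, 258, 252 and 253 against 166, 147, 163 and 172 CPM (0.70), and Sema3e was lower (-1.17). Sema3a was higher by 3.44, and its superficial values of 3.54, 2.96, 5.64 and 7.92 CPM were lowest in pool 2 and highest in pool 4, as the meningeal sum was.

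Synapse organizers and adhesion molecules differed in both directions, as did all genes tested (20.7% higher and 16.7% lower). C1ql2 (ENSMUSG00000036907), a secreted organizer of excitatory synapses, stood at 117, 101, 91.3 and 92.3 CPM in the superficial and 20.2, 16.5, 15.6 and 17.5 CPM in the deep libraries, a difference of 2.52 (SE 0.059, edgeR adjusted p = 5.98e-17). C1ql3 was higher too (0.77), while C1ql4 (-1.65) and Cbln2 were lower, the latter at 41.5, 38.4, 39.6 and 30.4 against 114, 105, 104 and 99.7 CPM (-1.50). Cerebellins, C1q-like proteins and contactins together had 7 higher and 8 lower of 18, with a median of 0.01 that was -0.02 with median-of-ratios factors. Among 11 non-clustered protocadherins, Pcdh20 had the largest difference, at 42.9, 41.1, 42.1 and 37.5 CPM against 15.7, 13.6, 15 and 13.6 CPM (1.50, SE 0.068, edgeR adjusted p = 1.12e-12), and Pcdh19 (-0.74), Pcdh17 (-0.61) and Pcdh10 (-0.60) were lower. Of 17 classical cadherins 4 were higher and 7 lower (median -0.18, and 0.04 with the pan-neuronal scaling), with Cdh13 at -0.57 and Cdh10 at -0.61 among the lower ones. Cdh1, of the meninges, was higher by 5.51, at 5.8, 2.05, 14.7 and 12.7 CPM in the superficial libraries. Among teneurins, latrophilins and FLRTs 2 of 10 were higher (1 without pool 1, 2 or 3) and 5 lower (1 with the pan-neuronal scaling), with Flrt2, a cell-surface repellent and adhesion gene, at 0.74 and Tenm4 at -0.46.

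The matrix between cells differed by layer. Of 18 genes of the neural extracellular matrix 11 were higher in the superficial layer and 4 lower, with a median of 0.45. Tnc (ENSMUSG00000028364), which codes for tenascin-C of immature astroglia, stood at 390, 453, 554 and 586 CPM against 86.7, 97.6, 119 and 119 CPM, a difference of 2.23 (SE 0.056, edgeR adjusted p = 1.74e-16). Sparcl1, an astrocyte protein that promotes synapses, stood at 917, 975, 1027 and 1003 CPM against 299, 260, 292 and 283 CPM (1.79, SE 0.058, edgeR adjusted p = 7.62e-15), and Ncan differed by 0.84. Acan, the core protein of nets around fast-firing neurons, was lower (-1.73), as were the link protein genes Hapln1 (-0.71) and Hapln4 (-0.99). The laminin gene Lama2 (2.12) and Thbs2 (2.45), which fibroblasts and vessels also make, were higher.

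Of the lists of secreted signals, those of BMP, Wnt and retinoic acid had more higher than lower members. For BMP and TGF-beta ligands and inhibitors 15 of 20 were higher and 3 lower, with a median of 0.80. Bmp6 stood at 45.3, 41.3, 66.5 and 83 CPM in the superficial and 1.97, 1.31, 1.84 and 1.92 CPM in the deep libraries (5.02, SE 0.12, edgeR adjusted p = 1.74e-16), lowest in pool 2 and highest in pool 4 of the superficial libraries, as the meningeal sum was, whose part in this was not tested. Gdf10, at 29.7, 40.3, 27.9 and 24.2 CPM against 3.73, 3.88, 4.17 and 4.24 CPM (2.91), and the BMP inhibitor gene Nog, at 55.8, 51.6, 43.7 and 45.6 CPM against 20.8, 14.9, 15.7 and 16.1 CPM (1.55), were higher too. Of 37 Wnt pathway genes 21 were higher and 7 lower (4 with the pan-neuronal scaling), with a median of 0.45. Fzd10, a Wnt receptor of the dorsal midbrain, stood at a mean of 99.8 against 39.3 CPM (1.34), the enhancer of Wnt signalling Rspo2 differed by 1.68, and Wnt3 by 0.83. Wnt6 was higher by 5.85 with a superficial mean of 10.1 CPM. Its superficial values of 9.76, 4.01, 10.4 and 16.2 CPM were lowest in pool 2 and highest in pool 4, as the meningeal sum was. Of 17 retinoic acid genes 12 were higher and 1, Crabp1 (-1.24), lower. Aldh1a2 (5.50), an enzyme that makes retinoic acid in the meninges, is also a member of the meningeal list, as is Crabp2 (4.48). The nuclear receptor gene Rxrg, which is in no meningeal list here, differed by 1.52. Fgf15, a signal of dorsal progenitors, stood at 7.63, 8.14, 5.02 and 4.88 CPM against 0.65, 1.28, 1.11 and 0.678 CPM (2.80), while of 19 FGF genes 4 were higher (7 with the pan-neuronal scaling) and 4 lower (median -0.09, and 0.13 with that scaling), shares near those over all genes. Of 16 genes of neurotrophins, the GDNF family and their receptors 3 were higher (1 without pool 2, 6 with that scaling) and 5 lower (median -0.05, and 0.17 with that scaling).

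Neuronal activity genes gave no single direction. Of 21, 8 were higher and 5 lower, with a median of 0.16. Immediate early genes that many cell types use were among the higher ones, such as Fos (0.63), Junb (0.61) and Fosl2 (0.95), whereas Arc (-0.98), Nptx1 (-0.97), Nptx2 (-0.79), Bdnf (-0.72) and Pcsk1 (-1.58), which mark active neurons, were lower. Npas4, which is used by neurons, was not called (-0.25).

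Astrocyte genes were layered in both directions, as were all genes tested (20.7% higher and 16.7% lower). Of 22, 12 were higher and 4 lower, with a median of 0.18. Gfap (ENSMUSG00000020932), the intermediate filament of fibrous and marginal astrocytes, stood at 470, 536, 527 and 378 CPM in the superficial and 4.9, 13.1, 17.6 and 7.04 CPM in the deep libraries, a difference of 48.4-fold (5.60 on the log2 scale, SE 0.29, edgeR adjusted p = 3.77e-05). The lowest superficial library was that of pool 4, and every superficial library lay above every deep one. Aqp4, the water channel of astrocyte endfeet, stood at 580, 624, 663 and 537 CPM against 196, 209, 259 and 217 CPM (1.45, SE 0.063, edgeR adjusted p = 5.36e-13), and Id3 at a mean of 156 against 26.4 CPM (2.55). The 4 lower members were the glutamate transporter gene Slc1a2 (-0.48), the amino acid transporter gene Slc7a10 (-0.83), Slc6a11 and S100b (-0.93). Slc1a3 (-0.06) and Aldoc (-0.05), found in nearly all astrocytes, were not called.

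The oligodendrocyte lineage was lower in the superficial layer. Of 13 genes of precursors and newly formed cells 12 were lower and 1, Vcan (0.26), higher, with a median of -0.47. They summed to a lower level in each superficial library than in any deep one, at 1544 to 1854 against 2276 to 2464 CPM. Enpp6, Bcas1 and Gpr17, of cells about to make myelin, differed most, by -2.77, -1.57 and -1.52, and Pdgfra, of dividing precursors, by -0.45. Bcas1 stood at 27.8, 27.9, 24.5 and 19.6 CPM against 83.7, 80, 74.9 and 57.6 CPM. Of 17 myelin genes 9 were lower and 4 higher. Mbp, a main protein of myelin, differed by -0.92, and its call ended without any 1 of the 4 pools and without the pairing. Its layers did not overlap. The higher member Cldn11 (3.30) is also made by meningeal cells.

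Cell cycle genes and most progenitor genes were higher in the superficial layer. Of 34 cell cycle genes 32 were higher and none lower, with a median of 0.82. They summed to 563 to 609 CPM in the superficial and 340 to 373 CPM in the deep libraries, and their median difference ranged from 0.72 to 0.87 over the 4 pools, lowest in pool 1. Top2a, which untangles DNA in dividing cells, stood at 30.4, 35.6, 42.1 and 44.7 CPM against 18, 19.1, 20.2 and 22 CPM (0.93, SE 0.072, edgeR adjusted p = 3.19e-09), and the mitotic kinase gene Cdk1 at 16.3, 14.9, 15.2 and 14.5 CPM against 6.52, 7.45, 6.01 and 7.16 CPM (1.17). The labels do not say which cells divide, and dividing cells of the vessels, meninges and glia express the same genes. Of 19 progenitor genes 14 were higher and none lower, with a median of 0.56. Vim, an intermediate filament of radial glia, vessels and fibroblasts, differed by 2.11 and Id1 by 2.26. Among genes narrower to neural progenitors, Pax3 was higher by 0.81 and Pax6 by 0.75, while Sox1 (-0.02), Hes5 (0.13) and Dll3 (0.15) were not called. Ependymal and choroid plexus genes were higher in 4 and lower in 4 of 18 (1 lower without pool 1 or pool 2 and with the pan-neuronal scaling, which turned the median from -0.18 to 0.04). Ttr, which defines the choroid plexus, was not called (-0.22).

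Meningeal fibroblast genes had the largest median difference of the 55 lists. Of 23 measured, 22 were higher in the superficial layer and none was lower, with a median of 4.47. Ptgds (ENSMUSG00000015090), a prostaglandin synthase secreted by the leptomeninges, stood at 1012, 410, 1510 and 1989 CPM in the superficial and 9.35, 2.54, 5.95 and 9.22 CPM in the deep libraries, a 174-fold difference (7.44 on the log2 scale, SE 0.26, edgeR adjusted p = 3.09e-06). The collagen gene Col1a1 stood at 184, 196, 276 and 366 CPM against 6.1, 5.87, 13 and 10.2 CPM (4.87), and Ogn, a small matrix proteoglycan, at a mean of 31.1 against 0.309 CPM (6.67). Of the 15 protein-coding genes with the largest rises by the naming rule, 4 are in this list (Ptgds, Ogn, Fmod and Slc22a6), and Lyve1 and Cd209f belong to macrophages of the brain's borders. Fam180a, Slc13a4, Cbr2, Mrgprf, Wnt6, Prdm6 and Plscr2 were, like the meningeal sum, lowest in pool 2 and highest in pool 4 of the superficial libraries. Msx2 and Itih2 did not have this order. The rise did not pass evenly through the pools: the median difference of the list was 4.23, 3.55, 4.40 and 4.48 in pools 1 to 4, and that of the 184 genes at least 8-fold higher, a set chosen by this contrast, was 3.39, 3.14, 3.68 and 4.02.

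Genes of blood and vessels were higher as well. Of 22 endothelial and pericyte genes 15 were higher and 4 lower, with a median of 0.53 and sums of 1021 to 1229 CPM in the superficial and 616 to 781 CPM in the deep libraries. The tight junction gene Cldn5 (1.14) and the endothelial cadherin gene Cdh5 (1.57) were higher, while Mfsd2a (-0.40) and Slco1a4 (-0.69), transporters of capillaries inside the brain, were lower. Of 7 red blood cell genes 6 were higher and none lower. Hba-a1, for alpha globin, stood at 216, 132, 188 and 196 CPM against 75.3, 69.7, 87.3 and 100 CPM (1.13), and the globin genes have near-identical copies between which reads may be split. The microglia and macrophage list had a median of 0.00, with 6 genes higher (10 with the pan-neuronal scaling) and 7 lower. The 4 genes of macrophages at the brain's borders were all higher, with Lyve1 at 5.61, Pf4 at 5.04, Mrc1 at 3.45 and Cd163 at 2.21. Lyve1 stood at 19.1, 13.4, 27.3 and 29.4 CPM in the superficial and 0.461, 0.491, 0.671 and 0.118 CPM in the deep libraries. The 7 lower members are genes of microglia within the tissue, such as Cx3cr1 (-0.60), P2ry12 (-0.54) and Siglech (-0.51), while the microglial genes Tmem119 (0.33) and C1qc (0.18, a call that ended without the pairing) were higher.

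**Figure D3:**
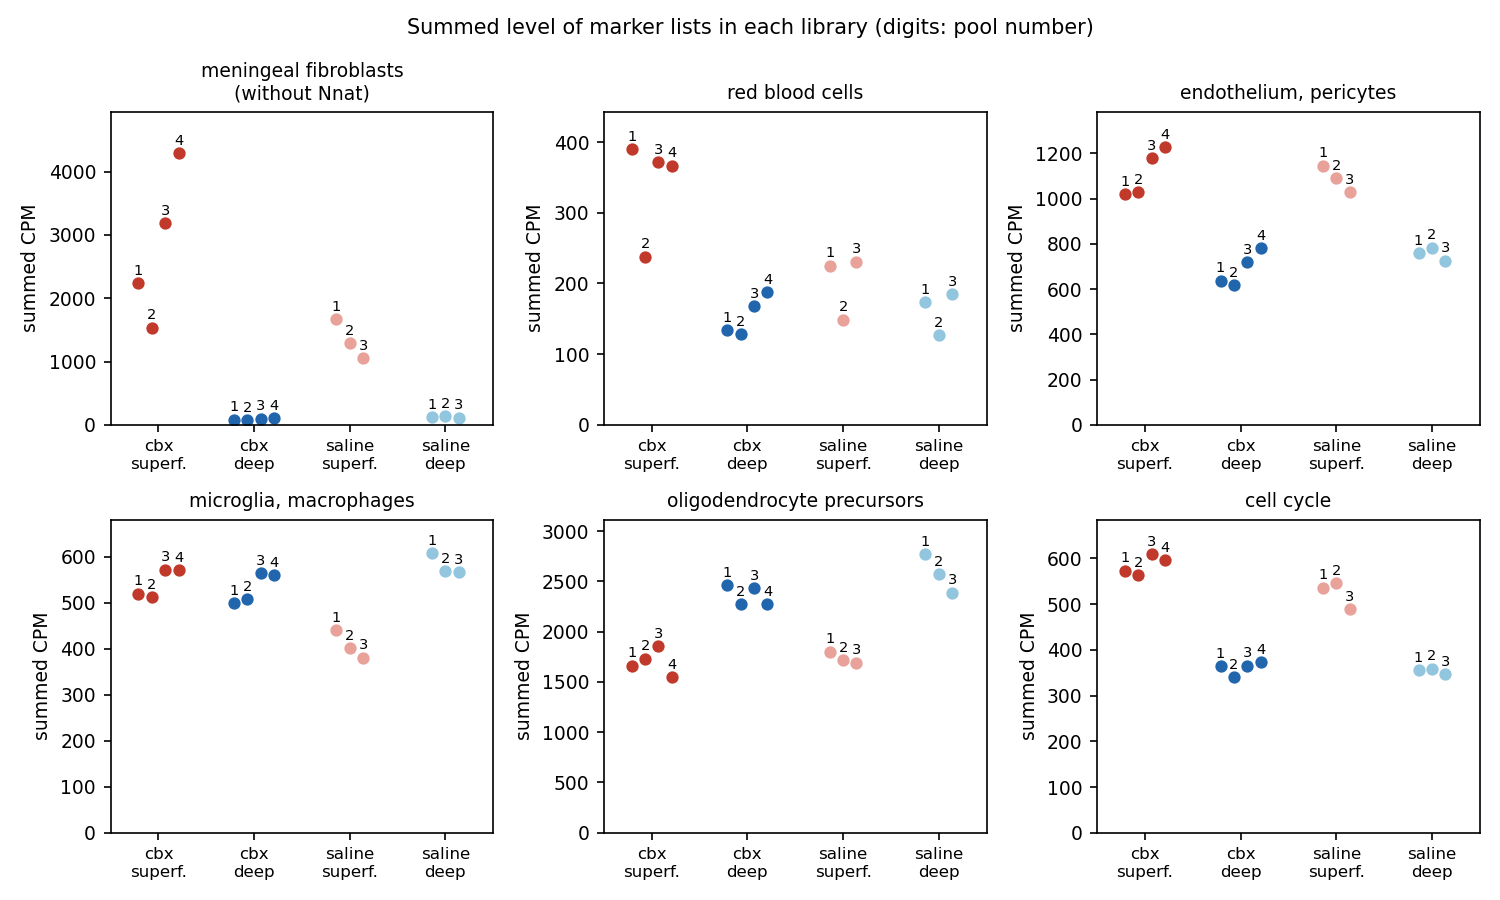
Summed CPM (vertical axes, from 0) of 6 marker lists in each of the 14 libraries, by treatment and layer, with digits for the pool. Meningeal sums in the cbx superficial libraries run from 1535 in pool 2 to 4291 in pool 4, and the cell cycle and oligodendrocyte precursor sums separate the layers in opposite directions.

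Of 21 genes of sterol synthesis 12 were lower and none higher, with a median of -0.16 that turned to 0.07 with the pan-neuronal scaling, under which 1 was lower and 5 higher. Fdps, an enzyme early in the pathway, differed by -0.82.

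**Figure D4:**
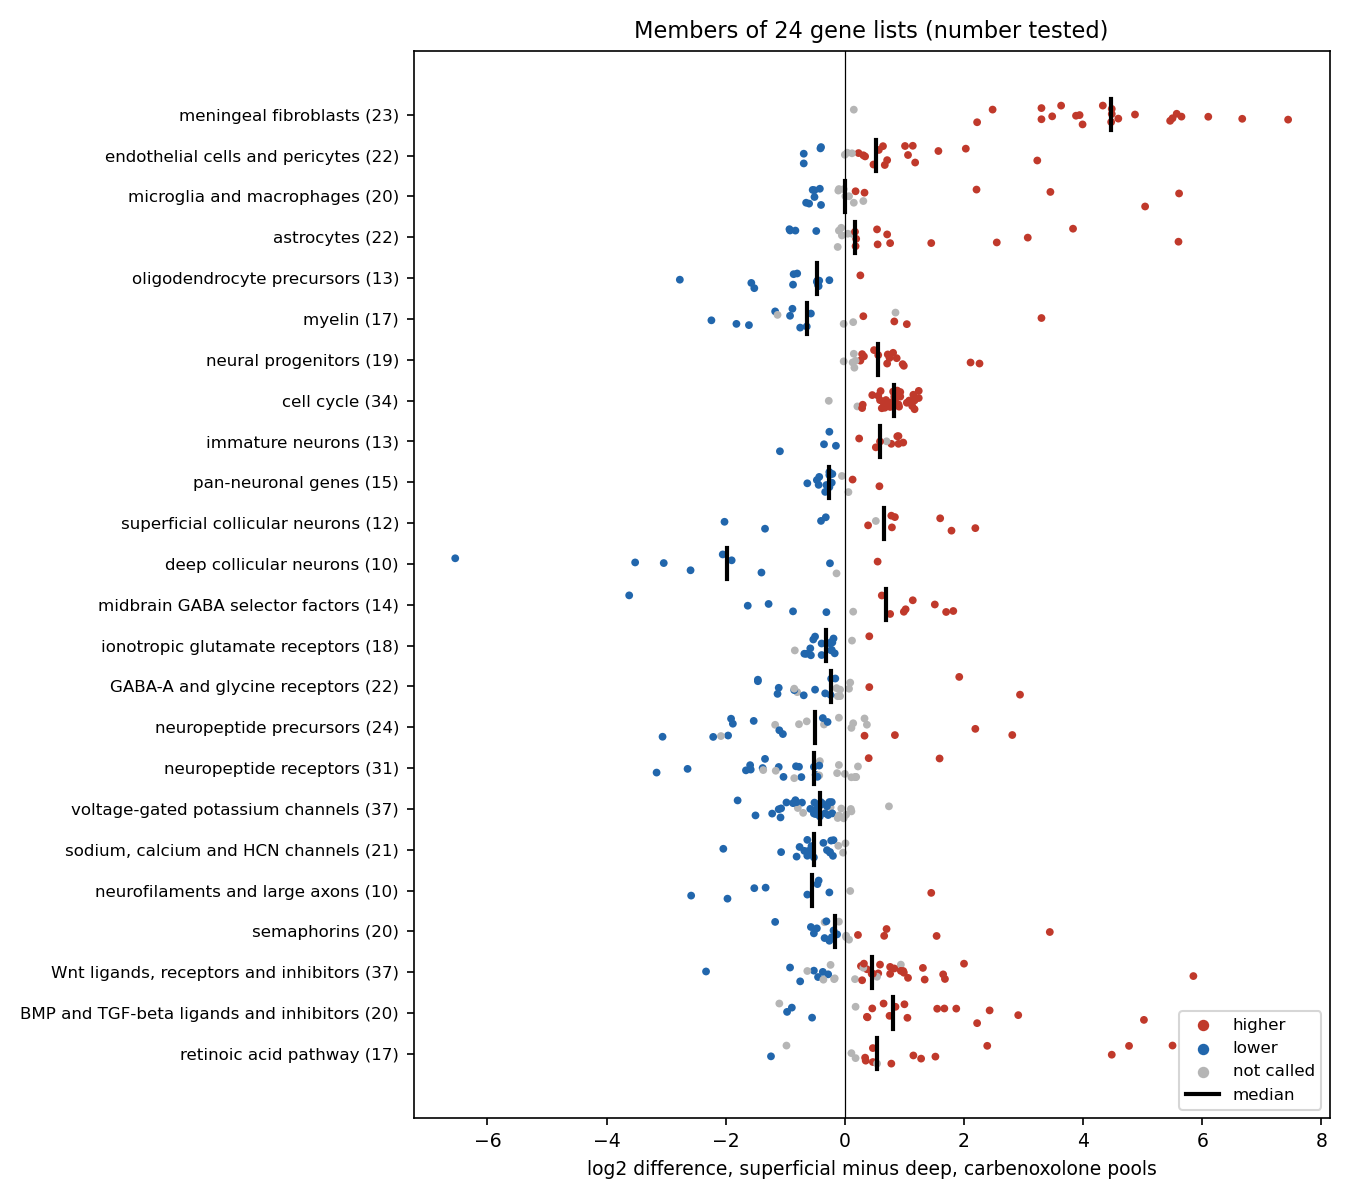
Log2 difference between layers (horizontal axis, superficial minus deep, cbx pools) of each tested member of 24 lists (rows, number tested in brackets), red where higher, blue where lower, grey where not called, with the median as a bar. The meningeal list lies farthest to the right with a median of 4.47, and the deep collicular neuron list farthest to the left with a median of -1.98.

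The same layer difference was measured in the 3 saline pools, which share no library with the cbx pools. There 2439 genes were higher (12% of those tested) and 2223 lower (10.9%) by the same edgeR fit. The smaller number of pools bears on these counts, so they are not set against the cbx counts. Of the genes higher after cbx, 2043 were also called higher after saline (48.6% of the cbx list and 83.8% of the saline list), and 1850 were lower in both (54.5% and 83.2%). Opposite calls were made for 5 and 2 genes. Of the genes called higher after cbx, 78.1% were higher in 3 of 3 saline pools (31.2% of all genes tested were), and of those called lower 77.8% were lower in 3 of 3 (25.5% of all genes tested were). Across genes, which are not independent replicates, the layer differences after cbx and after saline correlated with Pearson's r = 0.886 over 15168 genes whose mean reached 1 CPM, and r = 0.67 over all 20330. Layer genes had like differences in both, with Tac1 at 2.19 after cbx and 2.42 after saline, Rorb at 1.79 and 1.70, Barhl1 at 1.60 and 1.31, Gfap at 5.60 and 6.08, Pou4f1 at -1.40 and -1.53, Tfap2b at -1.63 and -1.59, and Slc17a6 at -1.05 and -0.97.

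The difference between both layer differences was tested itself. In the paired edgeR fit 61 genes passed (0.300% of those tested), 55 of them with a more positive layer difference after cbx than after saline and 6 with a more negative one. None passed without the replicate block (1699 had an unadjusted p under 0.05), 5 passed without saline pool 2 and 5 without saline pool 3, and 922 passed without cbx pool 4, so this count depends on single pools and on the pairing. DESeq2 with the block called 180 and limma-voom 66. By list, 5 of 23 meningeal genes, 5 of 20 microglial and macrophage genes, 3 of 22 astrocyte genes and 1 gene each of the red blood cell and vessel lists were among the 61. So were 2 of 14 connexin and pannexin genes (Gjb2 and Gjb6, both also in the astrocyte list), 2 Wnt pathway genes, 2 retinoic acid genes and 1 gene each of the progenitor, neuropeptide, potassium channel and cerebellin lists. Gjb2 differed between layers by 3.83 after cbx and 2.71 after saline (edgeR adjusted p = 0.0247 for the difference), and Gjb6 by 3.07 and 1.76 (edgeR adjusted p = 0.0223). Of the lists of superficial neurons, deep neurons and GABA selectors none was. The 22 meningeal genes without Nnat summed to 1535 to 4291 CPM in the superficial libraries after cbx and to 1057 to 1669 CPM after saline, and the part of this in the other genes was not tested.

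Agt and the complement genes were among the 10 genes with the smallest p-values of this test. Agt, which astrocytes use to make angiotensinogen, stood after cbx at 87.1, 79.3, 89.3 and 72.6 CPM in the superficial and 48.5, 44.2, 52.8 and 47.6 CPM in the deep libraries, and after saline at 66.7, 54.5 and 40.7 against 69.4, 50.3 and 41.7 CPM. The layers were apart after cbx (0.76) and overlapped after saline (0.01), a difference between treatments of 0.76 (SE 0.089, edgeR adjusted p = 0.000873). C1qa, a complement gene of microglia, stood after cbx at 43.6, 38.8, 41.5 and 36.1 against 38.3, 35.7, 39.7 and 38.5 CPM and after saline at 27.2, 23.2 and 26.8 against 42.1, 38.1 and 39.5 CPM, so it was lower in the superficial layer after saline (-0.63) and not called between layers after cbx (0.07), a difference of 0.70 (SE 0.098, edgeR adjusted p = 0.00364). C1qc moved in the same way (0.71, SE 0.1, edgeR adjusted p = 0.00526). The median layer difference of the whole microglia and macrophage list was -0.58 after saline and 0.00 after cbx, and the difference of these medians was not tested. The list's summed level was 381 to 440 CPM in the superficial and 567 to 608 CPM in the deep libraries after saline, and 513 to 572 against 500 to 564 CPM after cbx.

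The other genes of that set were higher in the superficial layer in both treatments and more so after cbx. They were Slc22a6 (5.65 after cbx and 4.14 after saline) and Islr (3.48 and 2.64) of the meningeal list, the imprinted RNA H19 (5.15 and 4.06), the leptin receptor gene Lepr (3.79 and 2.31), Vtn of pericytes (3.23 and 2.44), Txnip, a sensor of glucose and redox state (1.73 and 1.08), and Hba-a1 (1.13 and 0.28). Among the neuronal genes in the 61, Vgf differed between layers by -1.10 after cbx and -0.56 after saline (difference -0.54, SE 0.09, edgeR adjusted p = 0.00953), and Cbln2 by -1.50 and -2.04 (difference 0.53, SE 0.11, edgeR adjusted p = 0.0445).

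**Figure D5:**
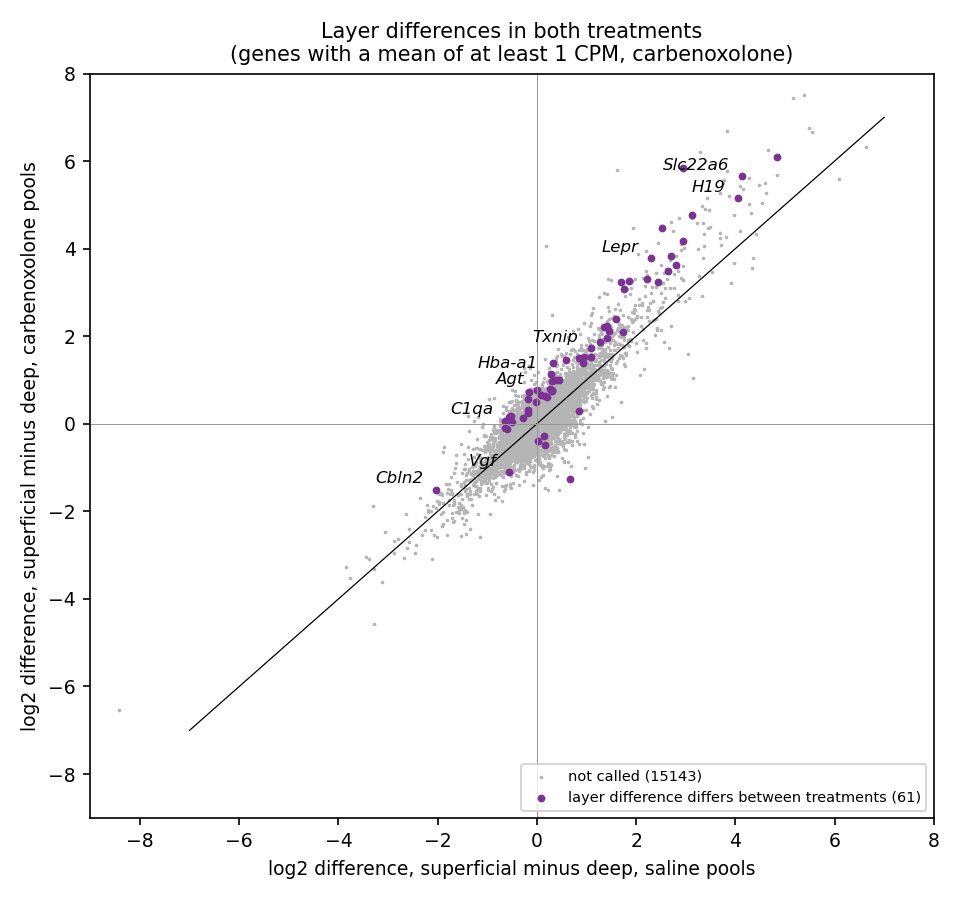
Log2 difference between layers after cbx (vertical axis) against that after saline (horizontal axis) for 15204 genes averaging 1 CPM or more in the cbx libraries, with the 61 genes whose layer difference differed between treatments in purple and the line of equal values. Most genes lie along the line, and 55 of the 61 lie above it.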

How the data were processed

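Poly-A selected RNA from both layers of the colliculus was sequenced in 14 libraries. The authors deposited raw read counts for 55359 Ensembl IDs. The submitters' processing notes name STAR 2.7.9d, FastQC 0.11.9, Subread 2.0.1 with featureCounts, SAMtools 1.14 and the builds GRCm39 and mm10. The annotation and the strand setting were not stated. Symbols were matched for 52083 IDs, holding 98.7% of counts. Library totals ranged from 32004952 to 48776827 counts.

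The analysis used edgeR 4.0.16 (R 4.3.3). After filterByExpr by group 20330 genes were tested with TMM factors, 7 pool terms and 1 layer difference per treatment (5 residual degrees of freedom), at a Benjamini-Hochberg threshold of 0.05. The script was tested on simulated data. Same-numbered layers deviated together from their group means (r = 0.394, 0.198, 0.329 and 0.194 in cbx pools, 0.382, 0.182 and 0.28 in saline pools). Between layers of unlike number r was -0.373 to 0.173 in cbx pools and -0.265 to -0.0289 in saline pools. The highest was that of superficial 4 with deep 3 after cbx. Whether same-numbered libraries shared brains or only their handling is not stated in the labels. Replicates of a cbx layer differed beyond sampling noise, with a chi-square of 8.8 or more per gene.

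The comparison, the gene lists and the naming rule were chosen with earlier results of these data known. Among called protein-coding genes averaging 1 CPM or more whose layers did not overlap, the rule took the 15 largest rises and falls and, without those limits, up to 4 members per list by p-value (all in lists of up to 5) and the 10 smallest p-values for the difference between treatments. Gfap, Pou4f2, Nefm, Mbp, Pax7, Zic5, Acan, Mrc1, P2ry12, Col1a1, Calb1 and further list members given with a log2 difference or mean alone were chosen after their values were seen. Alternatives were no block, only the cbx libraries, median-of-ratios and pan-neuronal library factors, other filters, DESeq2 1.42.0, limma-voom (limma 3.58.1), a fold change of 1.2, and each pool left out. Some members of the lists are counted but not reported here by name.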

Additional observations from a re-analysis of the deposited data

Results flagged for a closer look

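In 498 groups of 4 cbx libraries (249 named genes in 2 layers) 19 had 1 library far from the other 3. Chance flags about 1 group in 20. In the deep layer the library that stood apart was that of pool 1 for Wnt6 (0.335 CPM, high), Pcp2 (0.587, high) and Lhx1 (12.9, high), that of pool 2 for Pmfbp1 (6.09, high) and Bcl11b (144, low), that of pool 3 for Msx2 (0.117, high) and Cd209f (0.204, high), and that of pool 4 for Mrgprf (0.206, high), Enpp6 (2.36, low), Pou4f1 (119, high), Efna5 (47.9, high) and Fzd10 (45.1, high). In the superficial layer it was that of pool 1 for Gria2 (257, low) and Lhx9 (93.3, high), that of pool 3 for Kcns2 (23.1, high), and that of pool 4 for Grm4 (80.2, low), Ache (80.7, low), Htr7 (9.02, low) and Pdyn (1.46, low). Pools 4 of both layers account for 9 of the 19.

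The layer difference itself differed between cbx and saline pools, by the paired edgeR test, for the 10 named genes Slc22a6 (cbx minus saline 1.51 on the log2 scale), Islr (0.85), Hba-a1 (0.85), Vtn (0.78), Agt (0.76), H19 (1.09), C1qa (0.70), Txnip (0.64), C1qc (0.71) and Lepr (1.48).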

How the results depend on the processing

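The counts of 4205 genes higher and 3397 lower in the superficial layer became 3671 and 2873 with no replicate block. With only the cbx libraries they were 3537 and 2969, of 18709 genes tested. They stayed within 1.5 times in both settings and with median-of-ratios factors, both other filters, DESeq2 and limma-voom. They moved with pan-neuronal factors (8700 and 1449) and against a fold change of 1.2 (1913 and 1455). With 1 cbx pool left out they ranged from 2984 to 4294 and from 2818 to 3620. The 61 genes whose layer difference differed between treatments became 0 with no replicate block (1699 at an unadjusted p under 0.05), 14 with pan-neuronal factors, 440 with no filter, 180 with DESeq2 and 5 against a fold change of 1.2, and ranged from 5 to 922 with 1 pool left out. The cause was not tested. It was 18 without cbx pool 3, 922 without cbx pool 4, 40 without saline pool 1 and 5 without saline pool 2 or 3. Of its 10 named genes 0 passed without the block, 4 without saline pool 2 or 3, 5 against the fold of 1.2, 8 with pan-neuronal factors, 9 with limma-voom, and 10 under each of the others.

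Of 249 named genes, 226 kept direction and side of the threshold with pan-neuronal factors, 228 against a fold of 1.2, 245 without the block, 244 to 246 with 1 cbx pool left out and 247 to 249 elsewhere. Ephb3 (0.13), Ephb2 (0.15) and Mvd (0.0012) were positive with pan-neuronal factors, and Efna2 was -0.042 without cbx pool 2. Low counts in 1 layer limit the precision of the largest folds.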
